A study of Mus musculus with 33 samples.

Results

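Retinoic acid (RA)-treated and dimethyl sulphoxide (DMSO)-treated P19 cells were compared at day 6 of differentiation, in 3 RNA libraries of each (D6RA and D6DMSO), over every gene of the table except those of the mitochondrial genome. The comparison covered 14706 of 14717 genes and 6 of the 33 samples of the series. P19 is a mouse embryonal carcinoma line, a tumour-derived stem cell line that can form derivatives of several germ layers. In the D6RA group cells had been aggregated into embryoid bodies for 2 days with 1 µM all-trans RA, and in the D6DMSO group with 1% DMSO; aggregates were then moved to flasks in maintenance medium with charcoal-stripped serum. No untreated day 6 group is analysed here, so each value below sets one inducer against the other and not against cells given neither. The line, the medium and the aggregation step were shared by both groups. The other samples of the series are RNA libraries of undifferentiated and day 3 cells and chromatin immunoprecipitation libraries, and only the RNA libraries entered the fit, to estimate the spread. The design text calls the 3 samples of a condition biological replicates without saying what separated them. The p-values therefore measure only the spread between samples of a condition, which may be partly technical. That spread was pooled over all RNA libraries, so it also rests on the undifferentiated and day 3 samples. Those held 0% mitochondrial counts, against 41.6 to 55.8% at day 6. Their sizes on the deposited scaling, in units of 1000000 counts, were 2.19 to 10.98, against 22.8 to 31.9 at day 6. In them 4 genes, Lars2 and Gm15564 among these, took 1.97 to 45.7% of the non-mitochondrial counts, against 0.528 to 1.70% at day 6. This share was uneven within groups, at 1.97, 39.5 and 45.7% in the day 3 RA libraries. Fitting the day 6 libraries alone changed the result for some genes, as given below.

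RA is a ligand of nuclear receptors that pair with retinoid X receptors on DNA, and in the embryo it patterns the hindbrain and spinal cord and promotes neuronal differentiation. Proneural transcription factors of the basic helix-loop-helix class start the neuronal programme, and the loss of repressors such as REST and PTBP1 lets neuronal genes and neuronal splice forms appear. DMSO-treated P19 aggregates are a classical route to mesoderm, which passes through a primitive-streak-like state before cardiac, smooth muscle and endothelial genes are expressed.

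Total counts, in units of 1000000, were 38.2 to 49.6 in the D6RA libraries and 39.0 to 44.5 in the D6DMSO libraries. Mitochondrial genes took 41.6, 42.6 and 42.3% of counts in D6RA and 49.8, 51.8 and 55.8% in D6DMSO. The groups did not overlap in this share (exact two-sided permutation p = 0.1, the smallest that 3 against 3 libraries can give), and its part in the results was not tested. Most of these counts were mitochondrial ribosomal RNA. Of all counts, mt-Rnr2 took 31.6, 32.4 and 32.6% in D6RA and 41.3, 40.2 and 42.5% in D6DMSO. The other ribosomal RNA, mt-Rnr1, took 8.55, 8.84 and 8.25% in D6RA and 6.55, 9.45 and 11.1% in D6DMSO. Levels below are counts per 1000000 (CPM) on the scaling of the deposited table, with mitochondrial genes outside the total. Spearman correlations over genes were 0.995 to 0.999 within groups and 0.825 to 0.833 between them. A few genes stood apart in a single library. The predicted genes Gm10800 and Gm10801 reached 18040 and 1636 CPM in D6DMSO replicate 1, against 8.93 and 0.875 CPM or less in the other D6DMSO libraries. Lars2 and Gm15564 reached 6685 and 1693 CPM in D6RA replicate 1, against 866 and 229 CPM or less in the other D6RA libraries. None of these 4 genes passed the test.

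Most genes differed between the inducers. With an adjusted p under 0.05 (limma on the deposited log2 values, Benjamini-Hochberg over all genes) as the threshold for a call, 9677 genes were called, or 65.8% of those tested. Of these, 4802 (32.7%) were higher and 4875 (33.1%) lower in D6RA. The median log2 difference (D6RA minus D6DMSO) was -0.01, and its quartiles were -0.56 and 0.55. A call together with a difference of 2-fold or more was made for 29.6% of genes, 2187 higher (14.9%) and 2173 lower (14.8%), and these shares are the background against which the gene groups below are read. The libraries of the groups did not overlap for 80.2% of genes, with D6RA above in 39.8% and below in 40.5%, so a lack of overlap is common here too. At the far ends, 153 genes were higher and 92 lower by at least 64-fold. There were 21 genes with no count in any D6RA library and 5 with none in any D6DMSO library. With so many genes called, a call by itself says little about a gene, and sizes are given throughout. In bulk RNA, fewer cells of a type and less RNA per cell cannot be told apart, which touches every level below.

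**Figure D1:**
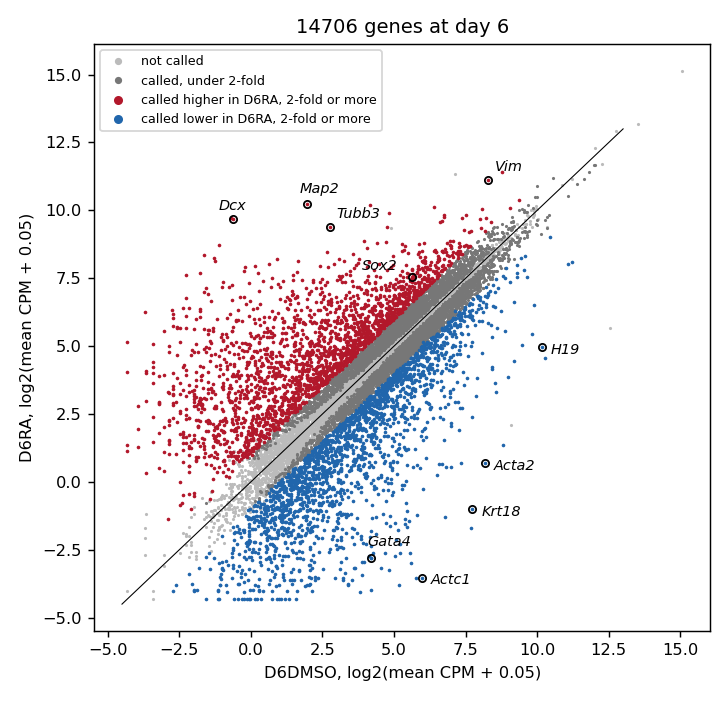
Mean level of each of the 14706 genes in D6DMSO (horizontal) and D6RA (vertical) as log2(mean CPM + 0.05), with called genes of 2-fold or more in red (higher in D6RA) and blue (lower). Dcx, Map2 and Tubb3 lie far above the diagonal line of equal levels, and Actc1, Krt18, Gata4 and Acta2 far below it.

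The neuronal and cardiac markers separated the groups. Tubb3, the neuronal beta-tubulin, was at 676, 679 and 677 CPM in the D6RA libraries and 6.31, 7.39 and 6.30 CPM in D6DMSO. The D6RA libraries lay close together and far above every D6DMSO library, with a log2 difference of 6.67 ± 0.09 (standard error (SE), n = 3 per group; limma adjusted p = 9.55e-18). Dcx, which encodes the microtubule-binding doublecortin of migrating young neurons, was at 887, 804 and 802 CPM against 0.789, 0.714 and 0.306 CPM (10.48 ± 0.34 on the log2 scale, limma adjusted p = 9.40e-14). Each D6RA library stood far above each D6DMSO library for Dcx too.

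Actc1, the cardiac alpha-actin, was at 61.6, 69.3 and 56.8 CPM in D6DMSO, and each D6RA library held a single count. The ratio of summed counts was 1808-fold (95% counting interval 618 to 8770, which covers counting error only). Gata4, a transcription factor of heart and endoderm development, was at 16.6, 23.4 and 15.01 CPM in D6DMSO and 0.0993, 0.0820 and 0.0939 CPM in D6RA (log2 difference -7.37 ± 0.54, limma adjusted p = 2.98e-09). For both genes the D6DMSO libraries varied among themselves by less than 2-fold and stood far above all D6RA libraries.

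Neurons alone, or mesoderm with early cardiac cells alone, did not cover everything in the libraries. In D6RA, genes of dividing neural progenitors were high beside the neuronal ones: Sox2 was at 175, 192 and 196 CPM, and Mki67, a protein of cycling cells named after its values were seen, at 729, 727 and 712 CPM. Mki67 was at 846, 911 and 810 CPM in D6DMSO and was not called (log2 difference -0.24 ± 0.12, limma adjusted p = 0.0889), though it was called lower with the day 6 libraries alone (0.00228). In D6DMSO, Pou5f1, the pluripotency factor OCT4, was at 40.2, 51.4 and 49.5 CPM, and T (brachyury), the factor of the primitive streak, at 25.6, 25.2 and 25.6 CPM. Epithelial keratins stood beside them, with Krt18 at 206, 233 and 202 CPM. D6DMSO thus held streak, pluripotency and epithelial transcripts besides the cardiac ones, and D6RA held progenitor besides neuronal ones.

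**Figure D2:**
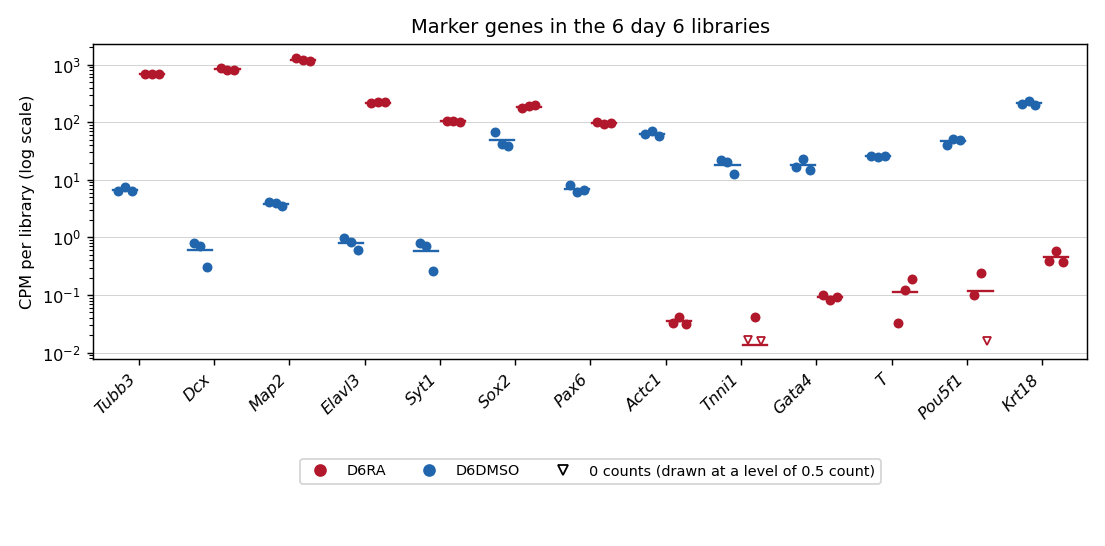
Level of 13 marker genes in each day 6 library, as CPM on a log scale, with 1 point per library, a short line at each group mean and open triangles for libraries with 0 counts. Dcx reaches 802 to 887 CPM in D6RA and stays under 1 CPM in D6DMSO, while Actc1, Tnni1, T and Pou5f1 are at or under 0.246 CPM in D6RA.

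The 10 genes furthest towards D6RA, once genes under 10 CPM in both groups and predicted genes were left out, were mostly genes of the nervous system. Scrt2, a neuronal Scratch-family repressor, was at 72.6, 77.7 and 80.7 CPM in D6RA and had 2 counts in all of D6DMSO (2675-fold by summed counts, 95% counting interval 740 to 22100). Msx3, a homeobox gene of the dorsal neural tube, was at 183, 212 and 192 CPM against 0.307, 0.168 and 0 CPM. Pantr1, a long noncoding RNA transcribed next to Pou3f3, was at 37.1, 33.6 and 36.0 CPM and had no count in D6DMSO, so it was at least 827-fold higher (floor of 3 counts over the group). Whether reads were assigned by strand is not given in the sources used here, so reads of overlapping or antisense genes may be shared. The others were Dcx, Fabp7, Fstl5, Prdm13, Dcc, Epha3 and Nhlh2, with log2 differences of 9.52 to 10.48. An Ensembl gene with no symbol in the name table used, ENSMUSG00000086878, was outside the rule and was as far apart (788, 863 and 863 CPM against 0.746, 0.504 and 0.438 CPM).

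The 10 at the other end were genes of muscle, epithelium, vessels and pluripotent cells. Cd36, a fatty acid uptake receptor, was at 37.9, 37.9 and 33.1 CPM in D6DMSO and had 2 counts in D6RA (1572-fold by summed counts, interval 435 to 12990). Krt19, an epithelial keratin, was at 49.8, 58.4 and 55.0 CPM and had 3 counts in D6RA (1571-fold, interval 537 to 7622). Trh, the gene for thyrotropin-releasing hormone, which P19 and embryonic stem cells express, was at 184, 216 and 219 CPM against 0.364, 0.246 and 0.157 CPM (log2 difference -9.63 ± 0.44). The others were Actc1, Tnni1, Ankrd1, Pou5f1, Etv2, Krt18 and Des. Of the genes with no count in D6RA, the most abundant in D6DMSO included Cfc1, a co-receptor of Nodal, Padi3, Lefty2, a Nodal antagonist, and Trim54, a muscle ring-finger protein, at group means of 1.94 to 2.93 CPM, so these low levels bound their folds at 56.1 to 84.3 or more.

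Gene lists for 41 pathways and cell types were used to describe the rest. The median log2 difference of a list is set beside the -0.01 of all genes, and its count of calls with 2-fold or more beside the 14.9% higher and 14.8% lower of all genes. Setting genes without counts in a group at the bound given by 3 counts changed no list's median.

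**Figure D3:**
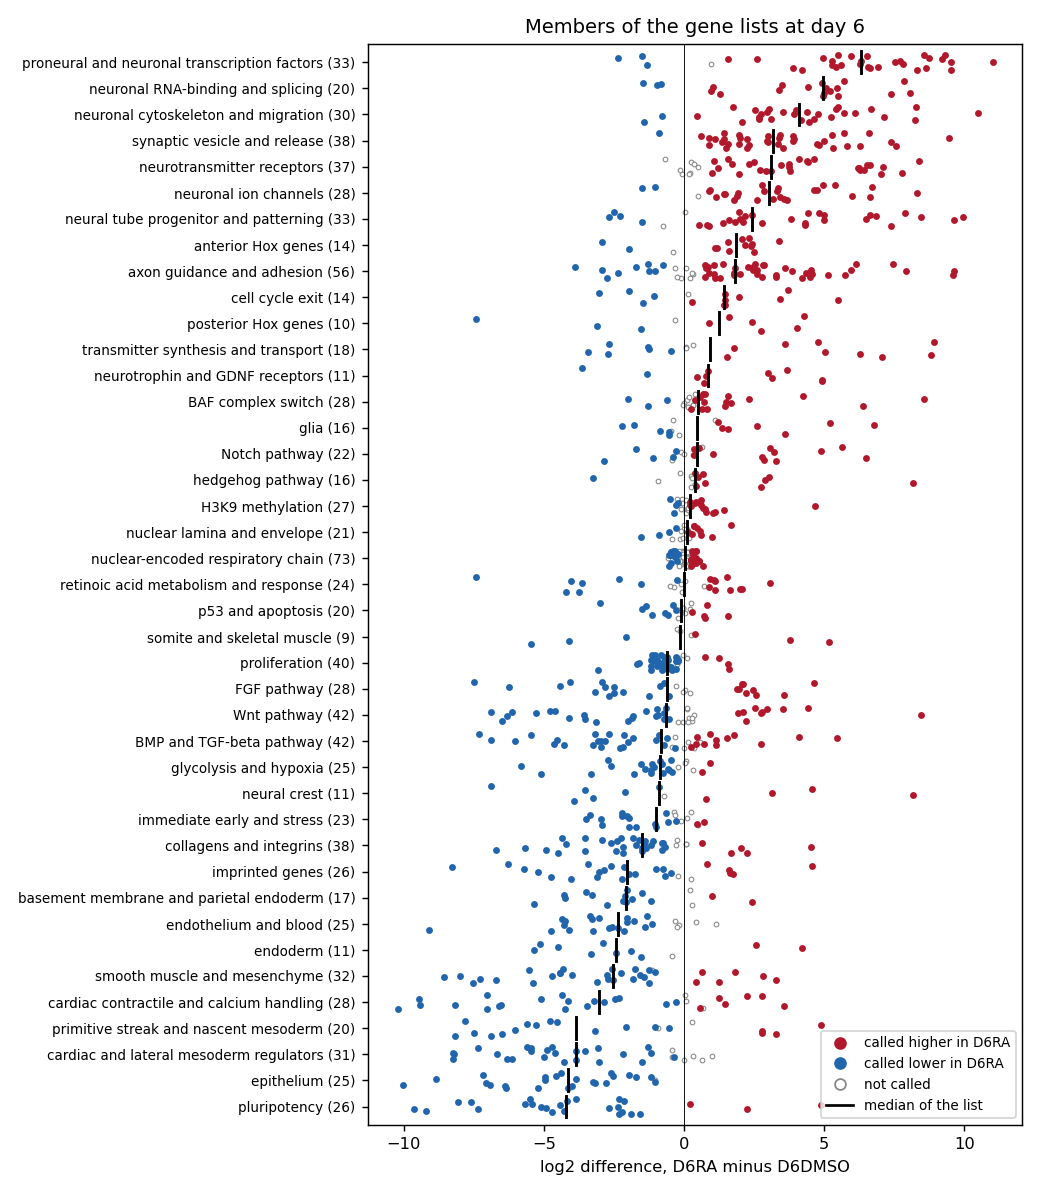
Log2 difference (D6RA minus D6DMSO) of each measured member of the 41 gene lists, with the number of members in parentheses, called members in red or blue, members not called as open circles and a bar at each list's median. Medians run from 6.31 for proneural and neuronal transcription factors to -4.23 for pluripotency genes.

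The neuronal lists were higher in D6RA with few exceptions. Of 33 proneural and neuronal transcription factors, 29 were called higher, each by 2-fold or more, 3 lower and 1 not called, and the median log2 difference was 6.31. Nhlh2, a helix-loop-helix factor of newly born neurons, was at 85.4, 76.7 and 82.1 CPM against 0.0439, 0.168 and 0.0875 CPM. Myt1, a zinc-finger factor that promotes neuronal differentiation, was at 296, 287 and 269 CPM against 0.263, 0.420 and 0.438 CPM. The factors lower in D6RA were Lhx2 (log2 difference -2.36 ± 0.41), Isl1 (-1.51 ± 0.36) and Phox2a (-1.34 ± 0.34), and Isl1 is also a factor of cardiac progenitors. All these groups of libraries were apart without overlap.

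Some factors of particular neuron classes, part of them named here after their values were seen, were also higher in D6RA. Others went the other way: Lhx2, Isl1 and Phox2a, given above, were lower, as was the patterning factor En1, given below. Lbx1, which marks interneurons of the dorsal hindbrain and spinal cord, was at 44.6, 51.2 and 50.4 CPM against 0.526, 0.0840 and 0.306 CPM. Tlx3, a selector of glutamatergic interneurons, was at 13.5, 18.6 and 15.6 CPM against 2 counts in 1 D6DMSO library. Ptf1a, the selector of inhibitory interneurons in the same region, was at 2.68, 2.46 and 2.32 CPM and had no count in D6DMSO (at least 57.5-fold higher). Prdm12, a factor of the V1 interneuron domain and of nociceptors, was at 1.75, 2.62 and 2.16 CPM, again with no count in D6DMSO (at least 49.8-fold higher).

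Cytoskeletal and migration genes of neurons were called higher in 28 of 30 cases, 27 of them by 2-fold or more, with a median of 4.10. Map2, the dendritic microtubule-associated protein, was at 1291, 1192 and 1166 CPM against 4.17, 3.91 and 3.50 CPM. Ina, the neurofilament protein alpha-internexin, was at 250, 239 and 237 CPM against 0.833, 0.504 and 1.14 CPM. The 2 exceptions were Bex1, at 46.9, 47.0 and 44.2 CPM against 123, 121 and 125 CPM (log2 difference -1.41 ± 0.08), and Prph, a peripheral-neuron intermediate filament protein (-0.78 ± 0.33, limma adjusted p = 0.0435). The call for Prph was lost when any of D6DMSO replicate 1 or 3 or D6RA replicate 1 or 2 was left out (limma adjusted p 0.0879 to 0.15). Summed over the list, levels were 11291 to 11851 CPM in D6RA and 1157 to 1328 CPM in D6DMSO.

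Among 20 neuronal RNA-binding and splicing genes, 17 were higher (16 by 2-fold or more) and 3 lower, with a median of 4.96. Elavl3, a neuronal Hu protein, was at 213, 225 and 223 CPM against 0.965, 0.840 and 0.613 CPM. Rbfox1, a neuronal and muscle splicing regulator, was at 66.5, 64.8 and 61.4 CPM against 0.921, 0.126 and 0.131 CPM, and Srrm4, which drives neuronal microexon splicing, at 105, 118 and 112 CPM against 1.18, 0.378 and 0.569 CPM. D6DMSO replicate 1 was the highest of its group for both.

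The 3 lower members were repressors or broadly expressed regulators. Rest, the repressor of neuronal genes in non-neuronal cells, was at 71.5, 73.7 and 72.7 CPM against 195, 195 and 213 CPM (log2 difference -1.47 ± 0.08). Ptbp1, the repressor of neuronal exons, was at 153, 156 and 160 CPM against 286, 308 and 335 CPM (-0.98 ± 0.08), and Mbnl2, a muscleblind splicing factor, differed by -0.83 ± 0.12. Ptbp2, the neuronal relative of Ptbp1, was named after its values were seen and lay the other way, at 377, 366 and 362 CPM against 201, 179 and 184 CPM (0.97 ± 0.07). Rest and Ptbp1 transcripts were lower in D6RA but remained well detected there.

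Genes of the synapse and of excitability showed the same direction with smaller medians. Of 38 synaptic vesicle and release genes, 37 were higher, 34 of them by 2-fold or more, with a median of 3.18. Rab3c, a vesicle GTPase, was at 120, 105 and 106 CPM against 0.307, 0.0840 and 0.0875 CPM. Syt1, the calcium sensor of release, was at 106, 106 and 101 CPM against 0.789, 0.714 and 0.263 CPM, and its relative Syt4 differed by 7.39 ± 0.40 on the log2 scale. Vamp1 was the exception, at 17.9, 16.02 and 16.3 CPM against 29.3, 32.3 and 32.1 CPM (-0.90 ± 0.21).

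Of 28 neuronal ion channel genes, 25 were higher (23 by 2-fold or more), 2 lower and 1 not called, with a median of 3.02. Cacna2d3, an auxiliary calcium channel subunit, was at 106, 97.6 and 96.9 CPM against 1.18, 0.798 and 0.832 CPM. Scn9a, a sodium channel, differed by 6.65 ± 0.40. Kcnq5 (-1.52 ± 0.44) and Kcnj3 (-1.05 ± 0.18), a G-protein-gated potassium channel that heart and brain share, were lower in D6RA.

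Of 37 neurotransmitter receptor genes, 29 were higher, each by 2-fold or more, and 8 not called, with a median of 3.10. None was called lower in this fit, but Grm8 (-0.68 ± 0.55) was with the day 6 libraries alone (limma adjusted p = 0.00554). The glycine receptor subunits Glra2 and Glra1 were among those furthest apart. Glra2 was at 7.42, 6.64 and 6.48 CPM with 1 count in D6DMSO (476-fold, interval 85.1 to 18830), and Glra1 at 44.7, 49.7 and 46.0 CPM against 0.219, 0.252 and 0.569 CPM.

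Transmitter synthesis and transport genes were divided, with 9 of 18 higher, each by 2-fold or more, 6 lower, 5 of them by 2-fold or more, and 3 not called. Slc6a5, the glycine transporter of glycinergic neurons, was at 51.3, 53.2 and 50 CPM against 0.263, 0.0420 and 0.0438 CPM. Slc17a6, the vesicular glutamate transporter VGLUT2, was at 30.2, 36.8 and 28.2 CPM and Slc32a1, the vesicular transporter of inhibitory transmitters, at 14.9, 18.1 and 15.2 CPM, each against 0.219 CPM or less in D6DMSO. Genes for both excitatory and inhibitory transmission were thus detected in the same libraries. The lower members were led by Ddc, aromatic amino acid decarboxylase (log2 difference -3.43 ± 0.29), Gch1, which makes the cofactor of monoamine synthesis (-2.72 ± 0.24), and Npy, a neuropeptide (-2.68 ± 0.25). For Gch1 the values were 3.77, 4.22 and 3.69 CPM in D6RA and 25.1, 25.7 and 26.4 CPM in D6DMSO.

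Axon guidance and adhesion genes were called higher in 40 of 56 cases (35 by 2-fold or more) and lower in 9, with a median of 1.81. Dcc, the netrin receptor, was at 306, 308 and 288 CPM against 0.395, 0.336 and 0.350 CPM. Epha3, an ephrin receptor, and Robo3, which governs midline crossing of commissural axons, differed by 9.62 ± 0.26 and 7.91 ± 0.34. The members lowest in D6RA were Unc5b (-3.88 ± 0.12), Plxnd1 (-2.93 ± 0.17) and Sema3e (-2.76 ± 0.20), and Unc5b, Plxnd1 and its ligand Sema3e are also known as guidance genes of blood vessels.

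Genes of neural tube progenitors and their patterning were higher in 27 of 33 cases, 24 of them by 2-fold or more, and lower in 4, with a median of 2.44. Pax6, a progenitor homeobox factor, was at 101, 94.5 and 98.1 CPM against 8.03, 6.17 and 6.74 CPM (log2 difference 3.81 ± 0.24). Sox2, which pluripotent and neural stem cells share, was at 68.3, 42.2 and 38.9 CPM in D6DMSO, so that its difference was only 1.96 ± 0.16, and D6DMSO replicate 1 was the highest of its group. Fabp7, the lipid-binding protein of radial glia, was at 426, 415 and 424 CPM against 0.570, 0.420 and 0.263 CPM.

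Further progenitor factors, Prdm13, which specifies dorsal interneurons, and Sox21, differed by 9.65 ± 0.77 and 8.45 ± 0.43 on the log2 scale. Of the 4 lower members, the 3 with a mean of at least 1 CPM in D6DMSO were genes of forebrain, midbrain or single hindbrain segments. Otx2, the forebrain and midbrain factor that the epiblast also expresses, was at 2.38, 2.75 and 2.10 CPM against 13.5, 17.4 and 15.5 CPM. Egr2, of hindbrain segments, and En1, of the midbrain-hindbrain boundary, were under 2.1 CPM in all libraries and differed by -2.30 ± 0.56 and -1.51 ± 0.52. The call for En1 was lost with quantile normalization (limma adjusted p = 0.1) and without D6DMSO replicate 3 (0.0514).

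Of 14 anterior Hox genes, which order the hindbrain and upper cord, 11 were higher by 2-fold or more and 2 lower. Hoxb5 was at 140, 142 and 151 CPM against 12.3, 12.1 and 17.0 CPM, and Hoxc5 and Hoxa5 differed by 2.48 ± 0.51 and 2.44 ± 0.24. The lower members were Hoxd1 (-2.94 ± 0.26) and Hoxb1 (-1.96 ± 0.29). Of 10 posterior Hox genes, 6 were higher (5 by 2-fold or more) and 3 lower. Hoxb6 was at 230, 243 and 231 CPM against 12.5, 10.3 and 13.8 CPM, with Hoxb8 and Hoxa6 next (4.05 ± 0.44 and 2.74 ± 0.43). Hoxd9 was at 16.4, 19.1 and 16.8 CPM in D6DMSO against 0.0331, 0.0820 and 0.188 CPM in D6RA, and Hoxa9 (-3.12 ± 0.73) and Hoxd8 (-1.52 ± 0.25) lay the same way. The genes named of paralogue groups 5 and 6 were thus higher in D6RA, and those of group 9 in D6DMSO.

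Genes of RA metabolism and response had no common direction at this time, after the move to maintenance medium, with 10 of 24 higher (8 by 2-fold or more), 8 lower (7 by 2-fold or more) and 6 not called. Among receptors, named after their values were seen, Rarb, a direct RA target, was at 120, 117 and 110 CPM against 38.2, 42.9 and 37.9 CPM. Rara was also higher (log2 difference 0.88 ± 0.09), and Rarg was lower, at 1.36, 1.93 and 1.53 CPM against 18.5, 22.3 and 19.9 CPM. The enzymes that degrade RA lay on opposite sides. Cyp26b1 was at 9.004, 8.97 and 8.23 CPM against 1.23, 1.05 and 0.832 CPM, and Cyp26a1 at 0.132, 0.0820 and 0.0626 CPM against 17.9, 18.98 and 18.4 CPM.

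Dhrs3, a retinal reductase, was at 70.2, 70.7 and 63.9 CPM against 16.9, 15.9 and 18.4 CPM (log2 difference 1.999 ± 0.13). Aldh1a2, the enzyme that makes RA in mesoderm, was at 32.8, 24.95 and 34.97 CPM in D6DMSO against 1.49, 1.89 and 1.53 CPM in D6RA (-4.22 ± 0.26). Tgm2, a transglutaminase known as an RA-responsive gene, was also lower in D6RA (-4.04 ± 0.34). The libraries of both groups were apart without overlap for each of these genes.

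Glial and neural crest lists were mixed. Of 16 glial genes, 7 were higher (all by 2-fold or more), 5 lower (2 by 2-fold or more) and 4 not called, with a median of 0.48. Slc1a2, a glutamate transporter, was at 188, 181 and 176 CPM against 1.89, 1.39 and 1.62 CPM, and Nfib, a factor of gliogenesis that radial glia and neurons also express, differed by 5.21 ± 0.19. Gfap, the astrocyte filament protein, was lower in D6RA, at 0.463, 0.451 and 0.438 CPM against 2.11, 2.27 and 2.06 CPM, as was Aldoc (-1.78 ± 0.17). Of 11 neural crest genes, 4 were higher (3 by 2-fold or more) and 6 lower (5 by 2-fold or more): Tfap2b (8.16 ± 0.47) and Tfap2a (4.58 ± 0.33), which dorsal interneurons also express, were higher, and Gata3 (-6.88 ± 0.59) and Erbb3 (-3.93 ± 0.44) lower.

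Of 31 cardiac and lateral mesoderm regulators, 25 were lower in D6RA, 24 of them by 2-fold or more, and 6 not called, with a median of -3.87. None was called higher in this fit, but Hopx (0.98 ± 0.85), Zfpm2 (0.65 ± 0.40) and Smarcd3 (0.32 ± 0.36) were with the day 6 libraries alone (limma adjusted p = 9.29e-05, 0.000307 and 0.0233). Summed levels were 920 to 957 CPM in D6DMSO and 189 to 196 CPM in D6RA. Meox1, a homeobox gene of somites, was at 117, 85.0 and 126 CPM against 0.430, 0.205 and 0.438 CPM. Foxc2, of paraxial mesoderm and vessels, and Osr1, of intermediate and lateral mesoderm, differed by -8.23 ± 0.57 and -8.23 ± 0.83. The members with the largest differences thus included genes of paraxial and intermediate mesoderm besides Gata4.

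Cardiac contractile and calcium-handling genes were lower in 19 of 28 cases, 17 of them by 2-fold or more, with a median of -3.03. Tnni1, slow skeletal troponin I, which the fetal heart also expresses, was at 22.4, 20.2 and 12.7 CPM in D6DMSO with 1 count in D6RA (1599-fold, interval 286 to 63190). Ankrd1, a cardiac ankyrin repeat protein, was at 47.7, 57.0 and 39.6 CPM against 0.0993, 0 and 0.125 CPM. Myh6 and Tnnt2, which encode sarcomere proteins and were named after their values were seen, lay the same way: in D6DMSO Myh6 was at 20.9, 23.0 and 12.7 CPM and Tnnt2 at 6.67, 4.33 and 3.98 CPM, and both were at or under 0.533 CPM in D6RA. Of other heart markers, Nkx2-5, Tbx5, Hand1 and Hand2 were not analysed here. D6DMSO replicate 3 was the lowest of its group for Tnni1, Ankrd1, Myh6 and Tnnt2. Of the 18 members lower in D6RA with a mean of at least 1 CPM in D6DMSO, 13 were highest in D6DMSO replicate 2, and the median coefficient of variation among D6DMSO libraries was 18.4%.

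Of the 6 contractile and calcium-handling genes higher in D6RA, 5 were so by 2-fold or more, led by T-type calcium channels that neurons also use. Cacna1g was at 91.9, 107 and 108 CPM against 8.55, 10.9 and 6.83 CPM, and Cacna1h differed by 2.77 ± 0.17. Nebl, an actin-binding protein of the Z-disc, also differed in this direction (2.25 ± 0.37).

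Smooth muscle and mesenchyme genes were lower in 25 of 32 cases, each by 2-fold or more, and higher in 6, with a median of -2.54. Des, the muscle intermediate filament protein, was at 29.7, 32.5 and 21.9 CPM against 0.0662, 0.0410 and 0.0626 CPM. Acta2, smooth muscle alpha-actin, was at 276, 322 and 274 CPM against 1.23, 1.89 and 1.597 CPM, and Prrx2, a mesenchymal homeobox gene, differed by -7.99 ± 0.41. The muscle actin genes share much of their coding sequence, and how reads that match several genes were counted is not given in the sources used here, so their separate levels are less certain. The list's summed level hid this difference, at 3621 to 3711 CPM in D6RA and 3679 to 4256 CPM in D6DMSO. It was carried in D6RA by Vim, the filament protein of mesenchyme that neural progenitors also make, at 2199, 2245 and 2172 CPM against 296, 306 and 331 CPM. Cdh11 (3.29 ± 0.18) and Zeb1 (1.26 ± 0.09) were also higher in D6RA.

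Somite and skeletal muscle genes split evenly, with 3 of 9 higher (2 by 2-fold or more), 3 lower (each by 2-fold or more) and 3 not called. These shares of calls are near those of all genes, 32.7% higher and 33.1% lower. Uncx, of the posterior somite and also of spinal neurons, was at 26.6, 34.3 and 30.5 CPM against 1.32, 0.420 and 0.963 CPM, and Eya2 differed by 3.77 ± 0.38. Acta1, skeletal alpha-actin, was at 11.4, 11.3 and 12.2 CPM in D6DMSO against 0.331, 0.164 and 0.282 CPM in D6RA (-5.45 ± 0.55), and Six4 differed by -4.12 ± 0.18.

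Endothelial and blood genes were lower in 20 of 25 cases, each by 2-fold or more, with a median of -2.36. None was called higher in this fit, but Robo4 (1.14 ± 0.51, limma adjusted p = 0.0592) was with 5 alternatives, among them the day 6 libraries alone (0.00131). Etv2, the factor that starts the endothelial and blood programme, was at 16.8, 11.6 and 13.9 CPM in D6DMSO with 1 count in D6RA (1216-fold, interval 218 to 48080). Tal1, of blood and vessel progenitors, was at 17.2, 15.3 and 15.7 CPM against 0.761, 0.533 and 0.470 CPM, and Fli1 differed by -4.37 ± 0.31. The junction genes Pecam1 and Cdh5, named after their values were seen, were at 2.63 to 8.38 CPM in all libraries and were not called (limma adjusted p = 0.289 and 0.523), though Pecam1 was called higher with voom weights (0.0462). Nos3, the endothelial nitric oxide synthase, was called lower (-1.33 ± 0.48, limma adjusted p = 0.0209). Its call was lost with quantile normalization (limma adjusted p = 0.0665) and without D6DMSO replicate 1 or 2 or D6RA replicate 1 or 3 (0.0523 to 0.0805).

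Epithelial genes were lower in D6RA in 24 of 25 cases, each by 2-fold or more, with a median of -4.13. Krt18 was at 206, 233 and 202 CPM against 0.397, 0.574 and 0.376 CPM, and its partner Krt8 at 56.6, 64.7 and 46.7 CPM against 0.430, 0.451 and 0.251 CPM. The list's summed level was 689 to 817 CPM in D6DMSO and 33.0 to 34.3 CPM in D6RA. Of the 21 lower members with a mean of at least 1 CPM in D6DMSO, 15 were highest in D6DMSO replicate 2.

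Endoderm genes were lower in 8 of 11 cases and higher in 2. Hhex, of anterior endoderm and blood vessels, was at 9.34, 8.36 and 9.23 CPM against 0.0993, 0.492 and 0.157 CPM. Foxa3 and Apob were low throughout: Foxa3 was at 1.32, 1.89 and 1.40 CPM in D6DMSO with 3 counts in D6RA (44.4-fold, interval 14.8 to 219), and Apob differed by -4.51 ± 0.55. The higher members, Cxcr4 (4.22 ± 0.12), a chemokine receptor of migrating neurons too, and Prox1 (2.57 ± 0.22), are also expressed in the nervous system.

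The extracellular matrix followed. Of 17 genes of basement membrane and parietal endoderm, 13 were lower by 2-fold or more and 2 higher by as much. Lamb1, the laminin beta-1 chain, was at 199, 214 and 221 CPM in D6DMSO against 4.57, 6.06 and 4.92 CPM in D6RA, while Lama1, the alpha-1 chain, lay the other way at 31.1, 31.7 and 36.9 CPM against 182, 165 and 187 CPM. Nid2 differed by -4.29 ± 0.14 and Pth1r by 1.01 ± 0.21.

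Of 38 collagens and integrins, 29 were lower (25 by 2-fold or more) and 5 higher. Col1a1 was at 30.3, 42.9 and 29.5 CPM against 0.662, 1.48 and 1.35 CPM. Col9a1 was at 4.25, 3.53 and 3.72 CPM with 2 counts in D6RA (166-fold, interval 45.4 to 1375), and Col13a1 differed by -5.67 ± 0.57. The integrin Itgb8, which neural progenitors express, was at 200, 176 and 198 CPM in D6RA against 8.24, 8.90 and 7.79 CPM. Itga4 (2.26 ± 0.49) and Col5a3 (2.05 ± 0.55) were low and higher in D6RA.

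**Figure D4:**
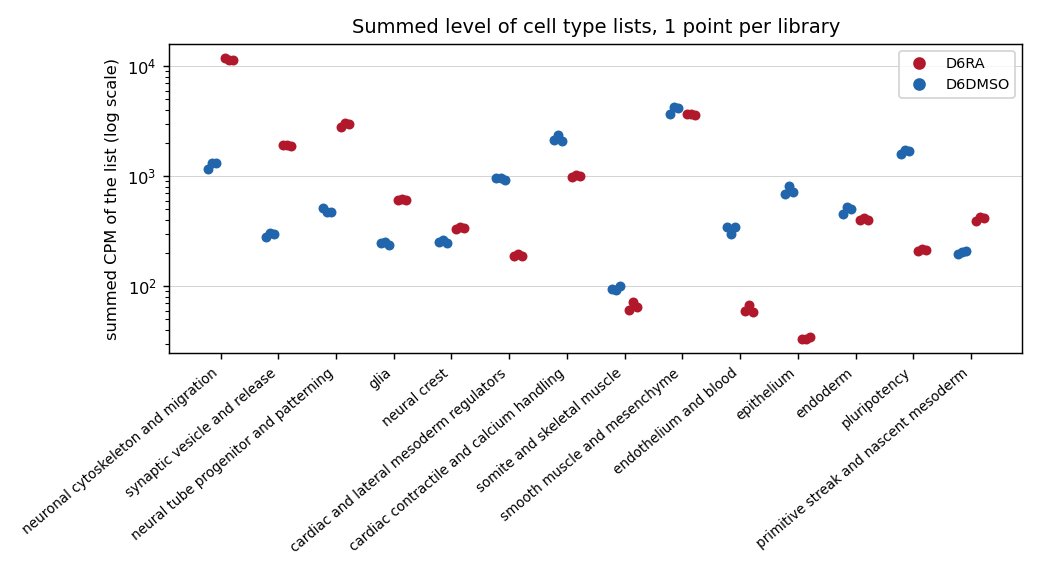
Summed CPM of 14 cell type lists in each day 6 library, on a log scale with 1 point per library. Epithelium (33.0 to 34.3 CPM in D6RA, 689 to 817 CPM in D6DMSO) and the neuronal cytoskeleton (11291 to 11851 and 1157 to 1328 CPM) separate the groups. Libraries of the groups overlap for smooth muscle and mesenchyme, where Vim dominates in D6RA.

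Pluripotency genes were the list with the lowest median, -4.23: 23 of 26 were lower in D6RA, each by 2-fold or more, and 3 higher. Pou5f1 had 9 counts in all of D6RA (log2 difference -9.22 ± 0.83, limma adjusted p = 3.83e-08). L1td1, an RNA-binding protein of stem cells, was at 9.91, 12.9 and 11.8 CPM in D6DMSO with 3 counts in D6RA (333-fold, interval 114 to 1619). Nanog, named after its values were seen, was at 11.8, 13.1 and 11.2 CPM against 0.0662, 0.0820 and 0.0313 CPM. Summed levels were 1581 to 1742 CPM in D6DMSO and 209 to 218 CPM in D6RA. The higher members were the nuclear receptors Nr5a2 (4.87 ± 0.59) and Esrrb (2.24 ± 0.59), both under 6 CPM, and Mycn (0.20 ± 0.08, limma adjusted p = 0.0391), whose call was lost with quantile normalization (0.282), without a trend (0.068) and without D6DMSO replicate 1 or 3 or D6RA replicate 2 or 3 (0.0795 to 0.166).

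Primitive streak and nascent mesoderm genes were lower in 14 of 20 cases, 13 of them by 2-fold or more, with a median of -3.85. T differed by -7.81 ± 0.46. Cdx2, a caudal homeobox factor, was at 10.3, 10.0 and 10.9 CPM with 2 counts in D6RA (450-fold, interval 124 to 3726), and Fgf8, a streak growth factor, at 12.1, 12.3 and 13.1 CPM against 0.0331, 0.123 and 0.0313 CPM. The list nevertheless had a higher summed level in D6RA, at 395 to 422 CPM against 198 to 207 CPM, and most of it in D6RA was Dll1, a Notch ligand that presomitic mesoderm shares with the neural tube. Dll1 was at 271, 284 and 282 CPM against 10.4, 8.61 and 9.54 CPM, and Lfng and Dll3 differed by 3.30 ± 0.16 and 2.78 ± 0.17.

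The Notch pathway as a whole, which holds neural progenitors back from differentiation, was higher in 12 of 22 cases (9 by 2-fold or more) and lower in 5 (3 by 2-fold or more). Besides the ligand Dll1, the target Hes5 was at 38.2, 40.9 and 41.3 CPM against 0.482, 0.294 and 0.525 CPM, and Mfng, a fringe that modifies Notch receptors, differed by 5.62 ± 0.38. The ligand Jag1 lay the other way: it was at 18.2, 17.4 and 16.6 CPM against 55.6, 54.3 and 60.7 CPM, and the Notch-like Dlk1 differed by -2.85 ± 0.28. Other members, named after their values were seen, were not called in this fit: the ligands Jag2 (0.31 ± 0.19, limma adjusted p = 0.175) and Dll4 (0.64 ± 0.53, 0.3) and the targets Hes1 (-0.12 ± 0.09, 0.249) and Hey1 (0.01 ± 0.12, 0.96). With the day 6 libraries alone, Jag2 and Dll4 were called higher (limma adjusted p = 0.00988 and 0.0303). Hes1 was called lower with quantile normalization (limma adjusted p = 0.0246).

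Of 42 Wnt genes, 10 were higher, each by 2-fold or more, and 23 lower, 15 of them by 2-fold or more. Wnt7b, a ligand of neural tissue, was at 79.9, 79.1 and 87.5 CPM against 0.307, 0.336 and 0.0875 CPM, and Wnt4 differed by 4.43 ± 0.19. Rspo3 (-6.90 ± 0.28), a Wnt-enhancing secreted protein, and Wnt8a (-6.49 ± 0.54), of the streak, were lower, with Rspo3 at 16.1, 21.3 and 18.1 CPM in D6DMSO. Of 42 BMP and TGF-beta genes, 12 were higher (7 by 2-fold or more) and 24 lower (20 by 2-fold or more). The Nodal antagonist Lefty1 was at 11.1, 18.1 and 15.3 CPM against 0.0993, 0.0410 and 0.0939 CPM, and Lefty2 had no count in D6RA (at least 59.0-fold lower). The receptor Bmpr1b (5.45 ± 0.17) was among the higher members.

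Of 28 FGF genes, 9 were higher, each by 2-fold or more, and 15 lower, 12 of them by 2-fold or more. The secreted ligands Fgf8 and Fgf10 were lower, with Fgf10 at 23.9, 34.4 and 28.2 CPM against 0.463, 0.246 and 0.407 CPM, and the intracellular, sodium channel-binding Fgf12 (4.63 ± 0.61) and Fgf14 (3.58 ± 0.36) were higher. In the hedgehog pathway 9 of 16 were higher, 4 of them by 2-fold or more, and 1 lower. Disp2, a Dispatched family member, was at 36.0, 33.9 and 37.6 CPM against 0.263, 0.0840 and 0.0438 CPM, and Scube2, a carrier that helps release the ligand, differed by 3.05 ± 0.34. The exception was Gli1, the pathway's target gene, at 0.530, 0.656 and 0.720 CPM against 5.17, 7.77 and 5.82 CPM. Among 11 genes of neurotrophin and GDNF signalling, 9 were higher (5 by 2-fold or more) and 2 lower: Ntrk2, the BDNF receptor, was at 119, 126 and 119 CPM against 4.52, 3.65 and 3.94 CPM, Sorcs1 differed by 4.92 ± 0.42, and the ligand Nrtn by -3.65 ± 0.49.

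Proliferation genes were lower in 32 of 40 cases but only 9 by 2-fold or more, with a median of -0.60. Myc was at 4.93, 5.25 and 4.85 CPM against 37.4, 41.0 and 48.1 CPM, and Ccnd3, a D-type cyclin, differed by -1.67 ± 0.09. Mycn, the family member of neural progenitors, named after its values were seen, was at 106, 116 and 110 CPM against 89.1, 106 and 94.2 CPM (0.20 ± 0.08), and the D6RA and D6DMSO libraries were close. Ccnd1, another D-type cyclin, was at 115, 135 and 115 CPM against 37.3, 43.6 and 38.5 CPM, and E2f2 differed by 1.58 ± 0.14.

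Of 14 genes of cell cycle exit, 9 were higher (8 by 2-fold or more) and 4 lower. The activators of the neuronal kinase CDK5 led: Cdk5r1 was at 115, 121 and 118 CPM against 2.81, 2.18 and 2.89 CPM, and Cdk5r2 differed by 3.70 ± 0.42. Gadd45b (-3.03 ± 0.33) and Cdkn1c (-1.95 ± 0.43), an imprinted inhibitor of cyclin-dependent kinases, were lower.

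Genes of the nuclear periphery and of histone H3 lysine 9 methylation had smaller medians than the neuronal lists. Of 21 genes of the nuclear lamina and envelope, 9 were higher and 4 lower, but only 2 and 1 by 2-fold or more, with a median of 0.11. Lmna, the source of lamins A and C, which are abundant in stiff tissues, was at 5.79, 7.09 and 6.32 CPM against 18.2, 18.1 and 18.8 CPM (log2 difference -1.52 ± 0.22). Lmnb1 was at 246, 266 and 252 CPM against 190, 198 and 207 CPM (0.36 ± 0.09), and Lbr, the lamin B receptor, differed by -0.90 ± 0.07. The highest differences towards D6RA were those of Syne2, a nesprin that moves nuclei in neural progenitors and neurons, at 835, 838 and 793 CPM against 246, 252 and 277 CPM, and of Tmem38a (1.01 ± 0.12).

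Of 27 genes of histone H3 lysine 9 methylation, 14 were higher and 4 lower, with 4 and none by 2-fold or more, and the median was 0.20. Prdm16 was at 26.9, 27.5 and 28.6 CPM against 1.27, 0.630 and 1.44 CPM, and the demethylase Phf2 differed by 1.42 ± 0.21. Uhrf1 (-0.49 ± 0.07), a partner of maintenance DNA methylation, and the methyltransferase Suv39h1 (-0.36 ± 0.09) were lower by less than 2-fold.

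Of 28 genes of the BAF chromatin remodelling complex, which exchanges subunits as neurons form, 16 were higher (8 by 2-fold or more), 3 lower and 9 not called. The median was 0.48, and 28.6% were called higher by 2-fold or more, against 14.9% of all genes. Actl6b, the neuronal actin-like subunit, was at 16.9, 16.4 and 17.6 CPM with 2 counts in D6DMSO (591-fold, interval 163 to 4882), and Bcl11a, an associated zinc-finger protein, was at 150, 163 and 154 CPM against 2.19, 2.10 and 1.36 CPM. Smarcd2 (-2.01 ± 0.09) and Phf10 (-1.29 ± 0.09), a progenitor subunit, were lower. The other subunits of the exchange were named after their values were seen. Dpf1 and Ss18l1, of the neuronal complex, were higher, with Dpf1 at 20.6, 22.5 and 20.6 CPM against 5.17, 3.57 and 4.11 CPM and Ss18l1 differing by 1.45 ± 0.16.

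Ss18, the progenitor counterpart of Ss18l1, was lower (-0.60 ± 0.07). Actl6a, the progenitor counterpart of Actl6b, was not lower, at 89.9, 92.1 and 96.2 CPM against 83.6, 75.7 and 74.1 CPM (0.25 ± 0.07, limma adjusted p = 0.00411). The neuronal subunits were thus higher in D6RA while transcripts of their progenitor counterparts were present in both groups.

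**Figure D5:**
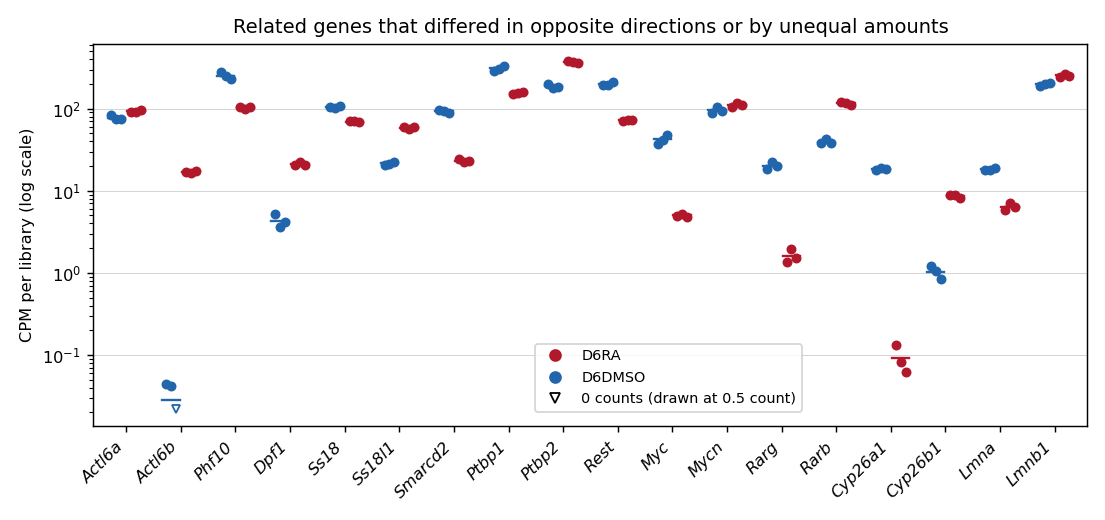
Level of 18 related genes in each day 6 library, as CPM on a log scale with 1 point per library and a line at each group mean. Cyp26a1 and Cyp26b1, Rarg and Rarb, and Phf10 and Dpf1 lie in opposite directions, Actl6b is near 0 in D6DMSO, and Actl6a and Mycn are close between groups.

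Promoters of the genes that differed were searched for 7 sequence patterns in RefSeq windows of 250 bases before to 50 after an annotated start (build GRCm38.p6; 10355 genes of the comparison matched). The windows below are shown because they belong to genes whose levels differ between the groups by a large factor, and capitals mark the pattern found. Actc1 (chr2:114052826-114053125, minus strand) and Acta1 (chr8:123894726-123895025, minus strand) hold a CArG box, the binding pattern of serum response factor, searched by its usual consensus on both strands. Elavl3 (chr9:22051974-22052273, minus strand) holds CAGCTG, a palindromic form of the E-box CANNTG that helix-loop-helix factors bind. The 3 were chosen after the matches were seen.
Actc1: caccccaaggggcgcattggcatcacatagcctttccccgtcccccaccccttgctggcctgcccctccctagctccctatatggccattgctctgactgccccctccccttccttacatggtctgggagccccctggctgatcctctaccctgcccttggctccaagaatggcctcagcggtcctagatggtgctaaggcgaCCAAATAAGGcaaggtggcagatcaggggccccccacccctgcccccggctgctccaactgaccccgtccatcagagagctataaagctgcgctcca
Acta1: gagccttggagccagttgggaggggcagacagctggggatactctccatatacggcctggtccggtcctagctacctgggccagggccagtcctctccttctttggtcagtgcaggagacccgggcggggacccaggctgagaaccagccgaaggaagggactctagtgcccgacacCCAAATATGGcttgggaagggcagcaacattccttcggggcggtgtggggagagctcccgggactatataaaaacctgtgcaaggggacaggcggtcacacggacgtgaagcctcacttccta
Elavl3: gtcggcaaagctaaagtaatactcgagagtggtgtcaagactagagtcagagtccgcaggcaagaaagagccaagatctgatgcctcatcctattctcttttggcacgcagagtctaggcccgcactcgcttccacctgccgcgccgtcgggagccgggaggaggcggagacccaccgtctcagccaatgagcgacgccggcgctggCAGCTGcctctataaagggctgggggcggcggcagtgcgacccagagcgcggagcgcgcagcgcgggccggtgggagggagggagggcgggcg
The CArG box of Actc1 starts 47 bases before the annotated start and that of Acta1 73 bases before it, and the CAGCTG of Elavl3 starts 43 bases before it.

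A CArG box lay in a window of 1.67% of all matched genes, 2.93% of those lower in D6RA by 2-fold or more and 1.87% of those higher. Among cardiac contractile and calcium-handling genes it lay in 5 of 22 (Actc1, Myl7, Myom1, Nebl and Ldb3), and Nebl was higher in D6RA. Among smooth muscle and mesenchyme genes it lay in 3 of 23 (Cnn2, Myl9 and Vcl). Lists mostly higher in D6RA held it too: 2 of 16 neuronal RNA-binding genes and 2 of 22 proneural and neuronal transcription factors. It lay in 1 of 25 synaptic vesicle and release genes and 0 of 18 neuronal cytoskeleton genes. The wider E-box CANNTG lay in 66.7% of all genes, 70.3% of those higher by 2-fold or more and 70.6% of those lower. CAGCTG lay in 18.04% of all genes, 23.4% of those higher by 2-fold or more and 21.2% of those lower, so both sides held it more often than all genes. It lay in 10 of 16 neuronal RNA-binding genes, which however have 2.25 windows per gene against 1.29 over all genes, and more windows give more chances of a match. The pattern AGATAA, to which factors of the GATA family bind, lay in 7.27% of all genes. Its share was 9.59% of those lower and 6.89% of those higher by 2-fold or more. It lay in 7 of 22 cardiac contractile genes, but of these Nebl was higher in D6RA and Pln was not called in the main fit. Pln was called higher with the day 6 libraries alone (limma adjusted p = 0.011). AGATAA also lay in 3 of 22 proneural and neuronal transcription factors and 3 of 25 synaptic genes, and in 0 of 23 smooth muscle and mesenchyme genes. AGGTCA, the half-site of retinoid receptors, lay in 14.3% of all genes, 13.3% of those higher and 17.6% of those lower by 2-fold or more. Exact direct repeats of it with 2 or 5 bases between lay in no window. A match describes letters and is neither a binding site nor a cause, and these shares were not tested.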

How the data were processed

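RNA from P19 cells was sequenced as single-end reads from a stranded, ribosomal RNA-depleted total RNA kit, per the labels' protocols. The submitters' processing notes name STAR 2.6.0c, featureCounts, edgeR, limma and build mm9, without roles. The deposited table holds log2 values; per its own numbers, each is log2 of (count + 0.5) times a factor per library, and 100% of values gave a count within 0.05 of a whole number. CPM were computed from these counts with the deposited factors.

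Of 1318 symbols in the lists, 1056 were measured. Ensembl IDs were matched to symbols for 14228 of 14717 genes. The deposited log2 values of 15 libraries in 5 groups were fitted with limma 3.58.1 in R 4.3.3 (trend; 10 residual degrees of freedom; Benjamini-Hochberg over 14717 genes). The same fit was run on simulated counts with these library sizes but an equal spread setting for every gene and library. That run does not cover the uneven spread of the real libraries. A 0 is bounded by 3 counts over the group; intervals are exact at 95% and cover counting error only.

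Genes named were 10 chosen markers, the 10 most extreme each way with 10 CPM or more, up to 3 or 2 members per list and direction with 1 CPM or more in the higher group and no overlap of libraries, and up to 5 each way with 0 counts in one group. Others are said to be named after their values were seen. A few genes that the rule names are not reported here. The comparison, the members and the 41 lists were chosen with earlier results of these data known. The alternatives were other scalings, filters, added count, voom weights, day 6 libraries alone, a replicate block and leaving out libraries. The chromatin samples were not used here.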

Additional observations from a re-analysis of the deposited data

How the results depend on the processing

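The number of genes called was 8767 to 11405 over the alternatives, against 9677, and stayed within 1.5 times of it in each. The extremes were a filter of 5 CPM in 3 libraries (8767, with 12552 genes tested) and the day 6 libraries fitted alone (11405). Quantile normalization moved the median log2 difference by -0.09 and gave 4233 genes higher and 5558 lower. Leaving out 1 library at a time gave 8890 to 9066 genes called, 4410 to 4532 higher and 4480 to 4559 lower, and 2147 to 2175 higher and 2111 to 2160 lower by 2-fold or more.

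The replicate numbers are shared by the groups, but same-numbered libraries did not deviate together (correlations of -0.06, -0.07 and 0.01), and they share only a number. With the replicate block 9806 genes were called, and 11276 with it in the day 6 libraries alone. Of 199 genes named by the rule, none changed direction under any alternative, and 178 of them passed the filter of 5 CPM. Most had been picked for a call and no overlap of libraries, so leaving out a library could not reverse them. Of 865 other list members, 38 changed direction with quantile normalization and 4 to 14 when 1 library was left out. Among the genes named by the rule, Prph, En1 and Ddit4 lost their calls under some alternatives. Ddit4 had a limma adjusted p of 0.0345, and 0.0686 to 0.108 where the call was lost (quantile normalization, no trend, and without D6DMSO replicate 1 or 3 or D6RA replicate 2 or 3). At a CPM of 1, a D6DMSO library of this depth holds 22.8 to 23.8 counts and a D6RA library 24.4 to 31.9, so folds of genes near 0 in a group rest on few counts.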

Other observations

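Imprinted genes, many of which are growth regulators of mesoderm and extraembryonic tissue, were lower in D6RA in 19 of 26 cases, 16 of them by 2-fold or more, with a median log2 difference of -2.04. Zim1, a zinc-finger gene of the Peg3 region, was at 99.0, 130 and 106 CPM in D6DMSO against 1.49, 1.64 and 1.13 CPM in D6RA. Phlda2, a repressor of placental growth, was at 22.4, 30.2 and 17.9 CPM against 0.0662, 0.0820 and 0.0313 CPM. The maternally expressed H19 and the paternally expressed growth factor gene Igf2, named after their values were seen, lay the same way: H19 was at 1199, 1248 and 974 CPM against 26.9, 39.99 and 26.6 CPM, and Igf2 differed by -4.75 ± 0.17. The higher members were led by Nnat, a proteolipid of developing brain, at 381, 397 and 397 CPM against 16.8, 15.5 and 17.6 CPM, and Usp29 (1.73 ± 0.28). The list's lower members also included Ddc, Dlk1 and Cdkn1c. Of the 19 lower members, 16 were highest in D6DMSO replicate 2, and 14 of 19 lower glycolysis and hypoxia genes were as well.

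Glycolysis and hypoxia genes were lower in 19 of 25 cases, 12 of them by 2-fold or more. Slc2a3, a high-affinity glucose transporter, was at 14.0, 16.4 and 13.6 CPM in D6RA against 495, 546 and 486 CPM in D6DMSO, and Car9, a hypoxia-induced carbonic anhydrase, differed by -5.84 ± 0.46. Hk1, the hexokinase of brain (0.93 ± 0.14), and Egln1, an oxygen sensor (0.63 ± 0.13), were higher. Nuclear genes of the respiratory chain differed little: 16 of 73 were higher and 13 lower, none by 2-fold, with a median of 0.03. Called members with no overlap of libraries ran from Atp5k (0.66 ± 0.12) and Cox4i1 (0.55 ± 0.09) to Ndufs6 (-0.53 ± 0.10) and Ndufs7 (-0.55 ± 0.11). The share of mitochondrial genome transcripts was lower in D6RA by 10.3 percentage points, but it was mostly ribosomal RNA. Its relation to these nuclear genes was not tested.

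Immediate early and stress genes were lower in 15 of 23 cases, 11 of them by 2-fold or more. Junb was at 3.28, 2.79 and 2.35 CPM against 29.5, 33.7 and 31.6 CPM, and Fosl2 differed by -3.35 ± 0.22. The higher members were Hspa5, a chaperone of the endoplasmic reticulum (0.72 ± 0.09), and Ddit4 (0.45 ± 0.18). Genes of p53 and apoptosis were divided, with 5 of 20 higher (1 by 2-fold or more) and 8 lower (4 by 2-fold or more). The shares of 2-fold or more were 5% higher and 20% lower, against 14.9% and 14.8% of all genes. Trp53inp1 was at 112, 103 and 108 CPM against 36.7, 39.1 and 33.1 CPM, and Bcl2l1, a survival factor of neurons, differed by 0.84 ± 0.09. Perp (-3.01 ± 0.38) and Phlda3 (-1.51 ± 0.29) were lower.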
